A study of Mus musculus with 3 samples.

Results

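Migrating myogenic progenitors are the muscle precursors that reach the early limb bud from the somites. They were picked out here by gating single cells on Pax3 and Lbx1, and 685 cells qualified out of 10659 barcodes that passed quality limits, themselves taken from 22501 deposited barcodes. A barcode qualified when it had at least 1000 genes and under 10% mitochondrial UMIs (unique molecular identifiers, each standing for 1 captured transcript), at least 2 UMIs of Pax3 and Lbx1 together, and at least 0.5 of them per 10000 UMIs of that barcode. It also had to hold less than 1 per 10000 of the endothelial genes Cdh5, Pecam1 and Emcn summed, less than 1 per 10000 of the ectodermal genes Epcam, Trp63 and Wnt6 summed, and no UMI of the neural crest gene Sox10. The gate found 46 cells in the control library, 188 in the library of mutant replicate 1 and 451 in that of mutant replicate 2.

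The libraries came from mouse forelimb buds at embryonic day 9.5 and were profiled by droplet single-cell RNA-seq. All embryos carried Esco2 fl/fl, a conditional allele pair of the acetyltransferase that locks cohesin on replicated chromosomes. The control embryos carried nothing further, and the mutants also carried Prrx1-CreTg/0, a transgene in which the Prrx1 limb enhancer drives Cre recombinase in limb mesenchyme. Each library pooled 3 samples of 2 limb buds each, from 2 male samples and 1 female sample, and 1 control library and 2 mutant libraries were analysed. Limb mesenchyme, used for comparison, was gated as barcodes with at least 2 UMIs per 10000 of Prrx1, Tbx5 and Twist1 summed and no UMI of Pax3 or Lbx1, which gave 1253, 1241 and 2098 cells in the control, mutant 1 and mutant 2 libraries.

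Limb muscle does not arise from the limb bud mesenchyme itself. Its precursors form in the ventrolateral dermomyotome of the somites, where Pax3 switches on the receptor tyrosine kinase gene Met. Hepatocyte growth factor, made by limb mesenchyme, acts on Met to release the cells and guide them, while the homeobox factor Lbx1 is needed for their lateral path and the muscle determination genes stay off until the cells have arrived. Prrx1-Cre acts in cells of lateral plate origin, so the precursors are neighbours of the cells it targets and not their descendants.

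The gate genes describe how the cells were chosen and are given with no test. Pax3, on chromosome 1 at 78101267 to 78197134 of GRCm38, stood at 1246 CPM (its UMIs summed over the gated cells of a library and scaled to a common total) in the control, 1300 in mutant 1 and 1092 in mutant 2. Lbx1, on chromosome 19 at 45232684 to 45235812, stood at 219, 278 and 176 CPM in the same order. Both genes had UMIs in 36 of 46 control cells, 167 of 188 mutant 1 cells and 404 of 451 mutant 2 cells. Close to the threshold lay 1, 2 and 1 cells between 0.5 and 0.6 UMIs per 10000, and 0, 2 and 5 barcodes between 0.4 and 0.5 were left outside, whereas the median gated cell held 8.80, 14.8 and 11.5. The third marker, Met, was not used by the gate, and its level, given below, follows the label in all 3 libraries.

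Some cells stood apart within the gate. In the control, 12 of 46 cells (26.1%) had a mitochondrial share below 0.5%, against 5 of 188 (2.66%) in mutant 1 and 27 of 451 (5.99%) in mutant 2. The control mesenchyme held 27.1% such barcodes and the mutant mesenchyme 7.01% and 7.58%. The 12 control cells had 375 CPM of the nuclear RNA Malat1 against 7082 in the other 34, drew 31.5% of their UMIs from ribosomal protein genes against 14.0%, and held 213 CPM of Pax3 against 1397. Lbx1 went the other way, at 309 CPM in the 12 against 206 in the other 34. None of the 12 had a Met UMI, whereas 23 of the other 34 had one. Depth was uneven too: the control cells summed to 1545002 UMIs with a median of 26712.5 per cell, mutant 1 to 10257107 with a median of 50042.5, and mutant 2 to 23103278 with a median of 51780. The 3 deepest cells held 26.0% of all myogenic UMIs in the control, 5.00% in mutant 1 and 2.80% in mutant 2, so control sums rested on few cells. Doublet calls marked 0, 6 and 13 of the myogenic cells. The libraries shared 65, 117 and 66 barcodes pairwise, of which 2, 2 and 6 passed the quality limits and 0 were myogenic.

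Myogenic progenitors made up 1.52% of the quality barcodes in the control (exact 95% interval 1.12 to 2.02), 5.86% in mutant 1 (5.07 to 6.73) and 10.2% in mutant 2 (9.32 to 11.1). The intervals of the 3 libraries did not overlap. They cover counting error only, and the mutant libraries differed from each other as well as from the control. Counted against mesenchyme instead, there were 3.67 myogenic cells per 100 mesenchyme cells in the control, 15.1 in mutant 1 and 21.5 in mutant 2. Leaving out the barcodes of low mitochondrial share gave 1.38%, 6.02% and 10.2%. With 1 control library against 2, an exact permutation test over libraries cannot go below p = 0.333, so the difference in share was not tested. The numbers of buds were equal by design, but how dissection, freezing and thawing sampled each cell type was not measured, and more myogenic cells and fewer other cells cannot be told apart in a share.

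**Figure D1:**
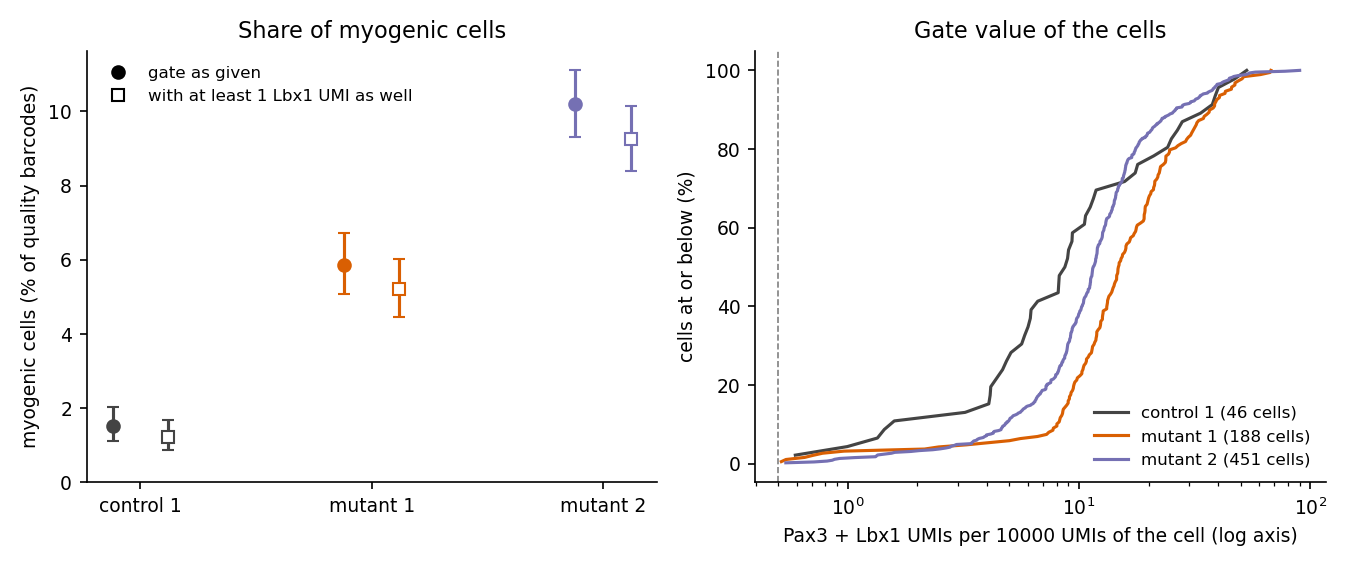
Left, the share of myogenic progenitors among quality barcodes in percent for each library, with exact 95% intervals, for the gate as stated (filled) and with at least 1 Lbx1 UMI required as well (open); the control lies below both mutants with either gate, at 1.52% against 5.86% and 10.2% with the stated one. Right, the percentage of gated cells at or below each Pax3 plus Lbx1 value (log axis, UMIs per 10000 UMIs of the cell), with the limit of 0.5 as a dashed line well below the medians of 8.80, 14.8 and 11.5.

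The gated cells held many UMIs of genes known from migrating limb muscle precursors and few of muscle genes. Of 10275 genes averaging 5 CPM or more over the 6 sums, 230 (2.24%) were at least 2-fold higher in myogenic cells than in mesenchyme in every library and 217 (2.11%) at least 2-fold lower, with 2 CPM added to each level before the ratio. A list of 30 genes that release, guide or keep migrating precursors had 22 members above that level, and 12 of these were higher and 1 lower. The cells were gated on expression, so these counts and ratios are descriptions with no test. A member that passed the level filter only through its level in myogenic cells, or only through that in mesenchyme, had to differ.

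Met, the receptor for hepatocyte growth factor, had the largest smallest-of-3 ratio among genes that the gates did not use. It lies on chromosome 6 at 17463800 to 17573980 and measured 279, 248 and 210 CPM in control, mutant 1 and mutant 2 myogenic cells, against 1.18, 2.27 and 1.55 CPM in mesenchyme. The log2 ratios were 6.46, 5.87 and 5.90, and the 2 classes were far apart in every library. With each cell thinned to 10000 UMIs, a Met UMI was found in 43.2% of control cells (27.1 to 60.5), 74.0% of mutant 1 cells (66.8 to 80.4) and 73.6% of mutant 2 cells (69.0 to 77.7). Leaving out the low mitochondrial barcodes gave a control share of 55.2% (35.7 to 73.6) and mutant shares of 74.3% and 75.1%, so that the control and mutant intervals then overlapped. Without thinning the shares were 50%, 89.4% and 87.4%. Erythroid cells, which should lack Met, gave thinned shares of 0.254%, 0.808% and 0.895% and mesenchyme 1.17%, 1.95% and 1.42%, so the myogenic shares lay far above the background of free RNA. Gab1, the docking protein through which Met signals, measured 159, 95.6 and 69.6 CPM against 39.5, 41.3 and 31.4 in mesenchyme. Its excess over mesenchyme was present in all 3 libraries and largest in the control.

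Most of the ligands had the opposite pattern. Hgf measured 4.53, 2.63 and 5.97 CPM in myogenic cells and 54.9, 87.1 and 70.6 CPM in mesenchyme. Fgf10, a mesenchymal growth factor of limb outgrowth, measured 16.2, 10.1 and 11.6 CPM against 145, 182 and 128. Bmp4 at 8.41, 5.07 and 10.7 against 79.7, 79.4 and 84.6 CPM and Wnt5a at 16.2, 16.1 and 14.4 against 46.6, 52.7 and 55.1 CPM behaved alike. In all, 4 of the 6 listed ligands above the level filter were at least 2-fold lower in the myogenic cells of every library and 0 were higher. Over all genes the shares were 2.11% lower and 2.24% higher. Cxcl12 and Efna5, with levels given below, did not follow: Cxcl12 lay above mesenchyme in every library and Efna5 in the control. The whole ligand list summed to 1056, 687 and 527 CPM in myogenic cells against 839, 1100 and 807 in mesenchyme. Receptor and ligand of the Met pair thus lay in separate cell classes in each library. The chemokine receptor Cxcr4, known from a subset of limb precursors, was close to its detection limit, with UMIs in 3, 5 and 23 cells and levels of 1.94, 1.07 and 1.26 CPM, and the scavenging receptor Ackr3 was lower than in mesenchyme, at 1.94, 1.36 and 1.34 against 12.4, 13.9 and 6.56 CPM.

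Transcription factors of the dermomyotome and of migrating precursors formed most of the higher members. Eya1, a transcriptional cofactor of muscle precursors, measured 456, 509 and 461 CPM against 24.5, 25.6 and 21.5, and Eya4 measured 218, 270 and 215 CPM against 31.5, 54.2 and 43.1. Both genes varied little between libraries beside their distance from mesenchyme. Meox2, which is needed for normal limb muscle, measured 317, 235 and 279 CPM against 10.1, 14.4 and 18.5, and its paralogue Meox1 62.1, 65.4 and 51.4 CPM against 5.31, 4.22 and 3.14. Sim1, a marker of ventrolateral dermomyotome and migrating precursors, measured 157, 108 and 72.0 CPM against 0.483, 0.53 and 0.252. The order of the libraries differed between these genes, and no library was highest throughout.

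Genes of the somite epithelium were more variable. Tcf15, which keeps somites epithelial, measured 119, 252 and 19.2 CPM in the 3 myogenic sums against 0.966, 3.05 and 0.373 in mesenchyme, so the 2 mutant libraries were on either side of the control. Foxc2 measured 38.8, 30.7 and 14.0 CPM against 0.732, 0.914 and 0.383. Dmrt2, a dermomyotome gene, measured 21.4, 0 and 1.26 CPM, and 19 of its 33 control UMIs came from 1 cell. Of the adhesion genes, Itga6, a laminin receptor subunit, measured 86.7, 29.5 and 24.02 CPM against 6.95, 9.35 and 7.08, while Cdh11 measured 446, 405 and 377 against 167, 257 and 267. Cdh2, the neural cadherin, did not separate the classes, at 274, 236 and 196 CPM against 270, 325 and 188.

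**Figure D2:**
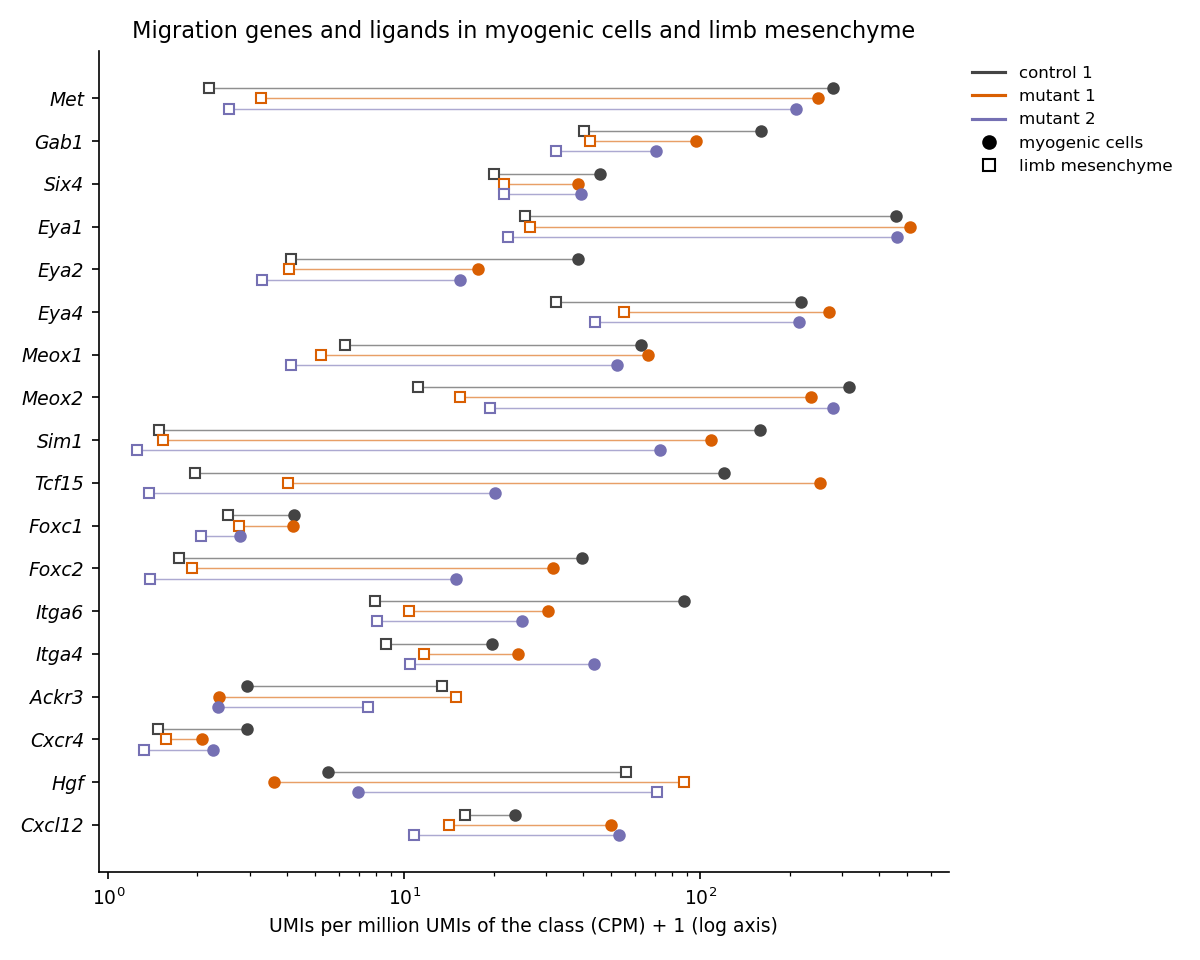
Levels of migration genes and of the ligands Hgf and Cxcl12 in myogenic cells (circles) and limb mesenchyme (squares), joined within each of the 3 libraries, on a log axis of CPM + 1. Met, Eya1 and Sim1 lie far to the right in myogenic cells of all 3 libraries, and Hgf lies to the right in mesenchyme.

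Sequences just upstream of 3 of the most myogenic-enriched genes are shown because they carry the contrast with mesenchyme at a receptor, a transcription factor and a gene usually read as endothelial. They were taken from RefSeq (GRCm38.p6), run 5′ to 3′ on the gene's strand and end before the first annotated exon: Met at chr6:17463707-17463799 (plus strand), Meox2 at chr12:37108290-37108539 (plus strand) and Kdr at chr5:75978459-75978705 (minus strand). Capitals mark ATTA or TAAT, the core letters of homeodomain sites, GTTCC or GGAAC, letters found in some paired domain sites, and CANNTG, the E box, each searched on both strands.
Met: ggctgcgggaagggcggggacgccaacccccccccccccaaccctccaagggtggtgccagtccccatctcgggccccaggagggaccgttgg
Meox2: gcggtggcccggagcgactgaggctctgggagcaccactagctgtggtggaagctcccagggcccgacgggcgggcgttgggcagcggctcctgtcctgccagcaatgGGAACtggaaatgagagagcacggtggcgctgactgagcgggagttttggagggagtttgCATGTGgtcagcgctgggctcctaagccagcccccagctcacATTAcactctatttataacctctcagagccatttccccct
Kdr: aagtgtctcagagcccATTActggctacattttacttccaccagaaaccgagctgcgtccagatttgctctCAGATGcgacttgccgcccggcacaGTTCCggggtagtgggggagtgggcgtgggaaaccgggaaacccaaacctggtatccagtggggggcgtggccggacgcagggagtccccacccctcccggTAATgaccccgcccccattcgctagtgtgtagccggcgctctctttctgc
The Met stretch of 93 bases held none of the 3 motifs, the Meox2 stretch held 1 of each, and the Kdr stretch held 2 of the first and 1 each of the others. Over whole RefSeq windows of 250 bases upstream of the start, which for Met and Kdr include exon bases left out above, ATTA or TAAT was present in 5 of 15 promoters (33.3%) of the 20 most enriched genes, of which 12 had an entry, against 54.9% of 32851 promoters. GTTCC or GGAAC was present in 46.7% against 40.3%, and CANNTG in 80% against 66.2%. A match is only a match of letters, and its absence says nothing about binding.

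Beyond the list, the genes of largest ratio included several with other known roles. Adamts16, a secreted metalloprotease, measured 79.6, 123 and 128 CPM against 0.0935, 0.366 and 0.322 in mesenchyme. Plch1, a phospholipase C, measured 593, 354 and 251 CPM against 14.4, 14.2 and 7.98. Kdr, the VEGF receptor best known from endothelium, measured 209, 186 and 119 CPM against 4.33, 5.47 and 4.22, although endothelial cells had been gated out. Nefm, a neurofilament subunit, measured 134, 170 and 180 CPM against 5.19, 4.21 and 3.83. Inpp4b, Megf10, St8sia4, Lin7a, Zcchc12, Fmn1, Scn3a, Lurap1l, Phlda1, Grik1 and Tmeff2 were also among the top 20, as were Met, Sim1, Eya1 and Meox2. The value of Tmeff2 in the control, 392 CPM against 221 and 173 in the mutants, drew 304 of 606 UMIs from 1 cell. At the other end stood limb mesenchyme genes: Crabp1, a retinoic acid binding protein, at 36.9, 36.5 and 50.7 CPM against 662, 651 and 818; the limb factor Lhx9 at 5.18, 6.53 and 18.3 against 147, 194 and 249; and the Wnt agonist Rspo2 at 5.18, 1.66 and 2.42 against 114, 115 and 61.0.

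Muscle differentiation was not detected beyond scattered UMIs. Myf5, the first of the muscle determination genes, had UMIs in 1 of 46, 2 of 188 and 16 of 451 cells, and in 0%, 0% and 1.68% of cells thinned to 10000 UMIs. The 0 of 37 thinned control cells allows a share of up to 8.11%, so a difference between libraries was not detectable at this depth. Pax7, the factor of later muscle progenitors, had UMIs in 1, 1 and 8 cells, Myod1 in 0, 0 and 1, Myog in 0, 0 and 2, and Myf6 in 0, 0 and 9. Of 19 muscle regulators and structural genes only Mef2c and Des passed the level filter, and neither separated the classes. Mef2c measured 12.3, 20.6 and 13.5 CPM against 12.5, 22.1 and 12.6, and Des 15.5, 16.3 and 21.8 CPM against 11.5, 13.5 and 11.6.

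Hox genes record axial position and, in the limb, the distance along the proximodistal axis. Of 34 Hox genes, 27 passed the level filter. Of these, 2 were higher in myogenic cells and 7 lower, where 2.24% and 2.11% of all 10275 genes were. Members that passed the filter only through their mesenchyme level had to be lower, so these counts are descriptions. Hoxa11, on chromosome 6 at 52242106 to 52245810, measured 168, 194 and 61.3 CPM in myogenic cells against 8.05, 13.7 and 9.59 in mesenchyme, and its neighbour Hoxa10 measured 50.5, 109 and 106 CPM against 15.5, 32.0 and 50.4. The adjacent Hoxa9 went the other way, at 18.1, 42.1 and 71.2 CPM against 109, 152 and 216. Hoxd9 and Hoxd10 were lower as well, at 4.53, 8.87 and 10.4 against 135, 160 and 137 CPM and at 1.29, 2.34 and 6.93 against 30.5, 46.9 and 85.7 CPM. Hoxb7, Hoxb9, Hoxc8 and Hoxd8 made up the remaining lower members, and Hoxc8 had no UMI in the control cells against 18.1 CPM in control mesenchyme. Strand use in counting was not given in the sources used here, and without it Hox genes and their antisense transcripts cannot be told apart.

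**Figure D3:**
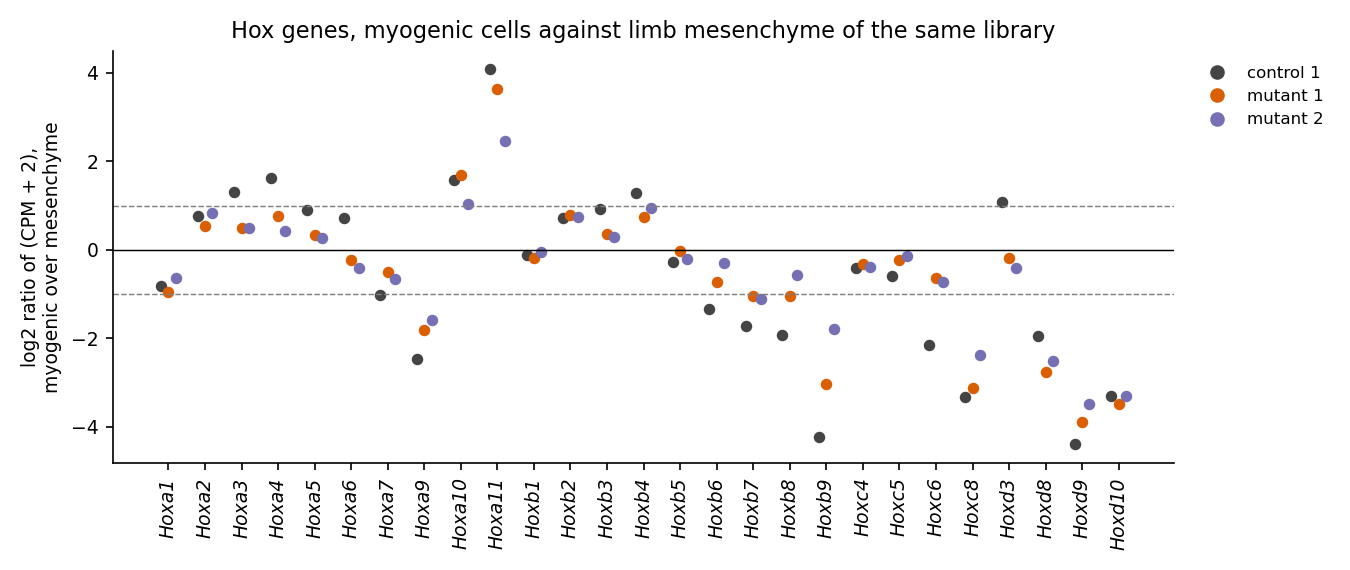
Log2 ratio of myogenic over mesenchyme level (2 CPM added to each) for the Hox genes that passed the level filter, 1 point per library, with dashed lines at a 2-fold difference either way. Hoxa11 lies at 4.08, 3.64 and 2.45 and Hoxa10 at 1.58, 1.70 and 1.04, above 0 in every library, while Hoxa9, Hoxd9 and Hoxd10 lie below it.

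The 7 mesenchyme markers summed to 201, 238 and 253 CPM against 1166, 1482 and 1397 in mesenchyme, and 6, 13 and 40 myogenic cells also passed the mesenchyme gate on Prrx1, Tbx5 and Twist1. These gate genes are among the 7, so a high mesenchyme sum follows from the gate. In the lists below, the myogenic gate held Cdh5, Pecam1, Emcn, Epcam, Trp63 and Wnt6 low and Sox10 at 0. Their low values therefore describe the gate. The endothelial list summed to 218, 192 and 127 CPM against 29.6, 25.7 and 21.5 in mesenchyme, nearly all of it Kdr. The neural crest list summed to 172, 193 and 153 CPM against 25.6, 43.7 and 37.7, nearly all of it Ets1 at 142, 176 and 138 and Erbb3 at 20.1, 11.1 and 11.2, with Foxd3 at 0. The sclerotome genes Pax1, Pax9 and Nkx3-2 were at 0 in the control and the 4 sclerotome genes summed to 3.88, 6.04 and 3.51 CPM. Macrophage genes summed to 1.29, 4.00 and 4.42 CPM and surface ectoderm genes to 6.47, 12.5 and 9.87 CPM. Haemoglobin and the other erythroid genes stood at 628, 12065 and 3424 CPM against 3127, 4779 and 2508 in mesenchyme. In mutant 1, 6643 of 15402 UMIs of Hbb-bh1 came from 1 cell.

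Mutant and control myogenic cells were then compared over their summed counts with edgeR's quasi-likelihood test. Of 10200 genes, 9 were higher in the mutants (0.0882%) and 52 lower (0.51%) at a Benjamini-Hochberg adjusted p under 0.05, with 582 (5.71%) and 948 (9.29%) at an unadjusted p under 0.05. The control arm is 1 library, which is assumed to vary like the mutants, and the labels name no litters, so these p-values reflect only the spread from library to library, which may be technical. All 9 and all 52 had the same direction in both mutants. Both mutants were set against the same control library and the test favours genes on which they agree, so this is not replication. Without the low mitochondrial barcodes the counts were 2 and 16, and without the cell holding most UMIs of each gene they were 19 and 24.

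The genes that rose were few and came from varied families. Egr1, an immediate early transcription factor, measured 4.53 CPM in the control and 33.5 and 32.1 CPM in the mutants, a log2 change of 2.92 ± 0.34 (SE; edgeR adjusted p = 0.0216). It had UMIs in 3, 85 and 205 cells. Egr1 also belongs to a list of 13 genes induced by tissue dissociation, of which 9 were tested: all 9 had positive changes with a median of 0.93, against 0.0085 over all genes, and Egr1 alone passed. The part of dissociation in these values was not tested. Cntn5, a neural adhesion protein, measured 0.647, 52.4 and 45.8 CPM (log2 change 6.29, edgeR adjusted p = 0.00346), and Epha5, an ephrin receptor, 7.77, 44.4 and 50.8 CPM (2.69, edgeR adjusted p = 0.023). Sorcs1, Dqx1, Fibin and Zfp804a rose as well, with log2 changes between 2.09 and 4.76. Their control levels rested on 1, 7, 9 and 12 UMIs, and that of Cntn5 on 1 UMI. The controls of Cntn5 and Sorcs1 thus lay under the floor of 3 UMIs used below, and the sizes of their changes are uncertain. For 6 of the 9 genes called higher, more than 25% of the control UMIs came from 1 cell. Xaf1 and Car10 had no UMI in the control cells and in the mutants measured 10.0 and 11.7 CPM (Xaf1) and 9.94 and 11.6 CPM (Car10). By DESeq2 the adjusted p was 0.185 for Xaf1, 0.187 for Car10, 0.181 for Sorcs1 and 0.0824 for Zfp804a. Against a floor of 3 UMIs in the control library, Xaf1 was at least 5.17-fold and 6.04-fold higher and Car10 at least 5.12-fold and 5.95-fold higher. Without the low mitochondrial barcodes only Egr1 and Cntn5 of the 9 were still called, and without each gene's top cell 7 were. Control mesenchyme held 9.39 CPM of Xaf1, close to the 7.61 and 10.5 CPM of mutant mesenchyme.

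Many of the genes that fell did so against a control level set by single cells. For 28 of the 52 more than 50% of the control UMIs came from 1 cell, and for 43 more than 25% did, with a median of 55.7%. Unc13b, a synaptic vesicle priming factor, measured 122 CPM in the control and 4.19 and 3.07 CPM in the mutants (log2 change -5.03; edgeR adjusted p = 0.000556), and 178 of its 189 control UMIs came from 1 cell; without each library's top cell the change was -1.28 (edgeR adjusted p = 0.285). Tbc1d2, a Rab GTPase-activating protein, measured 51.8, 0.78 and 0.476 CPM, with 78 of 80 control UMIs in 1 cell. All 40 control UMIs of Bpifc, all 44 of Gm26641, all 35 of Gm26797 and all 21 of Nipal3 lay in 1 cell, as did 42 of 44 of Pde6a, 119 of 128 of Tpcn2 and 77 of 78 of Gm26772. Of the 52 genes, 16 were still called lower without each gene's top cell and 16 without the low mitochondrial barcodes. Nrg1, a ligand of Erbb receptors, measured 640, 83.1 and 26.7 CPM (log2 change -3.50 ± 0.54, edgeR adjusted p = 0.0456) with 288 of 989 control UMIs in 1 cell, and its adjusted p was 0.0703 with edgeR without the low mitochondrial barcodes and 0.287 with DESeq2.

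**Figure D4:**
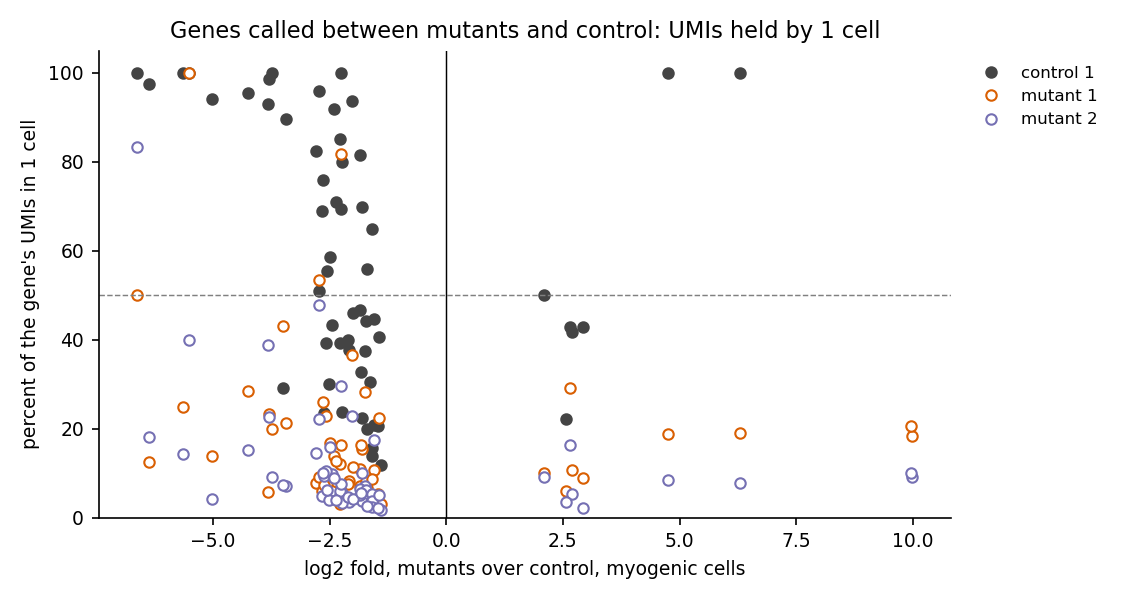
For each gene called between mutant and control myogenic cells, the percentage of its UMIs held by its highest cell (vertical axis) in each library, against the log2 fold of mutants over control (horizontal axis); the dashed line marks 50%. Control points (filled) of 28 of the 52 lower genes lie above the line, among them Unc13b, Tbc1d2 and Bpifc.

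Most genes of the migration list had negative changes, and 1 passed the test. Of the 22 migration genes tested, 0 were called higher and 1 lower, where 0.0882% and 0.51% of all 10200 genes were. At an unadjusted edgeR p under 0.05, 1 was higher and 7 lower, where 5.71% and 9.29% of all genes were. The median change was -0.21 with 5 of 22 positive, against 0.0085 with 5175 of 10200 positive over all genes. The list as a set was not tested. Itga6 fell, with a log2 change of -1.63 ± 0.23 (SE; edgeR adjusted p = 0.0376), from 86.7 CPM to 29.5 and 24.02, with 41 of 134 control UMIs in 1 cell. Its edgeR adjusted p was 0.0587 without the low mitochondrial barcodes and 0.0725 with thinned cells. Met, at 279, 248 and 210 CPM, differed by -0.22 (edgeR adjusted p = 0.695) and Meox2 by -0.23 (0.691). Eya2, at 37.5, 16.8 and 14.4 CPM, had a change of -1.20 ± 0.24 that missed the threshold (edgeR adjusted p = 0.0885). None of 7 Notch pathway genes, 9 FGF feedback genes, 20 cohesin genes, 27 S phase genes, 36 mitotic genes or 22 Hox genes was called in either direction. With 0.0882% of all genes called higher and 0.51% lower, these zeros are near the share over all genes. The medians were -0.24, -0.062, 0.046, 0.22, 0.051 and -0.17. At an unadjusted p under 0.05 edgeR gave 1, 0, 2, 0, 0 and 6 of them higher, against 5.71% of all genes. It gave 0, 1, 1, 0, 1 and 4 lower, against 9.29% of all genes. In simulated counts of the same depth the test recovered 18.75% of genes changed 2-fold and 92.71% of those changed 4-fold, so 2-fold changes of most members were not detectable. The simulated libraries all had the same dispersion and did not copy the weight of single cells in the control sums. Recovery in the real counts may therefore be lower.

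The targeted gene and the transgene were read in the same cells. Esco2, on chromosome 14 at 65819038 to 65833994, measured 23.3, 34.4 and 33.1 CPM in myogenic cells and 31.3, 22.1 and 21.6 CPM in mesenchyme. The mutant values lay above the control in myogenic cells and below it in mesenchyme, and neither change passed alone (0.60 and -0.56, edgeR adjusted p = 0.311 and 0.743). The difference between the classes was 1.15 ± 0.18 on the log2 scale and passed (edgeR interaction adjusted p = 0.0278), but was 0.36 with cells thinned to 10000 UMIs (0.743). The exon between the loxP sites was not given in the sources used here, and these 3′ counts do not measure recombination. A UMI of the CRE transgene was found in 0 of 46 control cells, which allows a share of up to 6.52%, in 0 of 188 mutant 1 cells (up to 1.60%) and in 2 of 451 mutant 2 cells (0.443%, 0.0538 to 1.59). Mutant mesenchyme held it in 4.59% and 5.10% of cells, at median depths of 34391 and 48262 UMIs, and mutant erythroid cells in 0.160% and 0%, so the myogenic share lay at the background.

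p53 targets, which stop the cell cycle or trigger apoptosis once p53 is stabilised, were called in mesenchyme but not in myogenic cells. The control sums held 64186121 UMIs in mesenchyme and 1545002 in myogenic cells. The 2 tests therefore differed in depth, and a target not called in myogenic cells may still have changed. In mesenchyme 8 of 31 listed targets were called higher in the mutants and 0 lower, where 0.812% of 10224 genes were higher and 0.949% lower; the list median was 0.62. In myogenic cells 0 of 24 were called by edgeR or DESeq2. By edgeR 0.0882% of 10200 genes were called higher and 0.51% lower there, so 0 of 24 is near the share over all genes. At an unadjusted edgeR p under 0.05, 3 were higher and 3 lower, where 5.71% and 9.29% of all genes were. The median was 0.06, but it covers the 24 targets above the level filter in myogenic cells, and the mesenchyme median covers 31. Cdkn1a, which encodes the cell cycle inhibitor p21 and lies on chromosome 17 at 29090976 to 29100727, measured 0.647, 14.0 and 2.94 CPM in myogenic cells against 1.76, 47.8 and 55.8 CPM in mesenchyme. Its myogenic value in mutant 1 drew 106 of 144 UMIs from 1 cell, and the change did not pass (3.69 ± 1.86, edgeR adjusted p = 0.388). In thinned cells a Cdkn1a UMI was found in 2.70%, 5.78% and 2.88% of myogenic cells, in 1.07%, 11.2% and 11.8% of mesenchyme cells, and in 3.31%, 1.45% and 2.46% of erythroid cells. The control myogenic share is 1 of 37 cells, with an interval of 0.0684 to 14.2. Without thinning the shares were 2.17%, 11.2% and 9.98% of myogenic, 2.47%, 16.7% and 17.5% of mesenchyme and 6.54%, 5.75% and 7.22% of erythroid cells. Ccng1 measured 4.53, 12.9 and 9.22 CPM against 7.84, 37.2 and 37.2, and Trp53inp1 0, 5.26 and 3.94 against 1.96, 16.1 and 14.6. With no filter on low counts, 3 targets (Cdkn1a, Trp53inp1 and Tnfrsf10b) were called higher in myogenic cells.

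The difference of the mutant effect between the classes was tested as an interaction of class and genotype, with a term for each library. Of 10275 genes, the mutant effect was higher in myogenic cells than in mesenchyme for 702 (6.83%) and lower for 821 (7.99%). The counts were 1292 and 1301 without the low mitochondrial barcodes and 149 and 319 with each cell thinned to 10000 UMIs. The gated mesenchyme itself varied in other markers between control, mutant 1 and mutant 2. Flank mesoderm genes summed to 199, 137 and 68.8 CPM there, coelomic genes to 44.3, 42.9 and 15.0, and ectoderm genes to 115, 72.7 and 28.4. Neural crest genes (25.6, 43.7 and 37.7) and sclerotome genes (13.6, 31.5 and 24.7) were higher in the mutants. The part of this in the differences was not tested. Among 28 p53 targets, the interaction called 1 higher and 5 lower. Mdm2, the ubiquitin ligase that p53 induces against itself, measured 58.9, 55.4 and 54.5 CPM in myogenic cells and 42.9, 80.6 and 74.7 CPM in mesenchyme, a difference of -0.86 ± 0.14 (edgeR interaction adjusted p = 0.0282). Btg2, an antiproliferative gene, measured 10.4, 8.97 and 9.003 CPM against 3.12, 15.5 and 14.5 (-2.37 ± 0.35, edgeR interaction adjusted p = 0.0278). Polk and Apaf1, for a repair polymerase and the apoptosome scaffold, had differences of -1.68 and -1.36, and Sesn2 of -1.77 with 9 of 13 control UMIs in 1 cell (-0.47 without each library's top cell, edgeR interaction adjusted p = 0.706). Rps27l was the 1 higher member, by 0.43. With cells thinned to 10000 UMIs the differences of Mdm2 and Btg2 were -0.62 and -2.51 and did not pass (edgeR interaction adjusted p = 0.393 and 0.197), nor did those of Apaf1 (0.0835), Sesn2 (0.920) and Rps27l (0.375). The differences for Cdkn1a (-1.38) and Ccng1 (-0.91) did not pass (edgeR interaction adjusted p = 0.911 and 0.371).

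**Figure D5:**
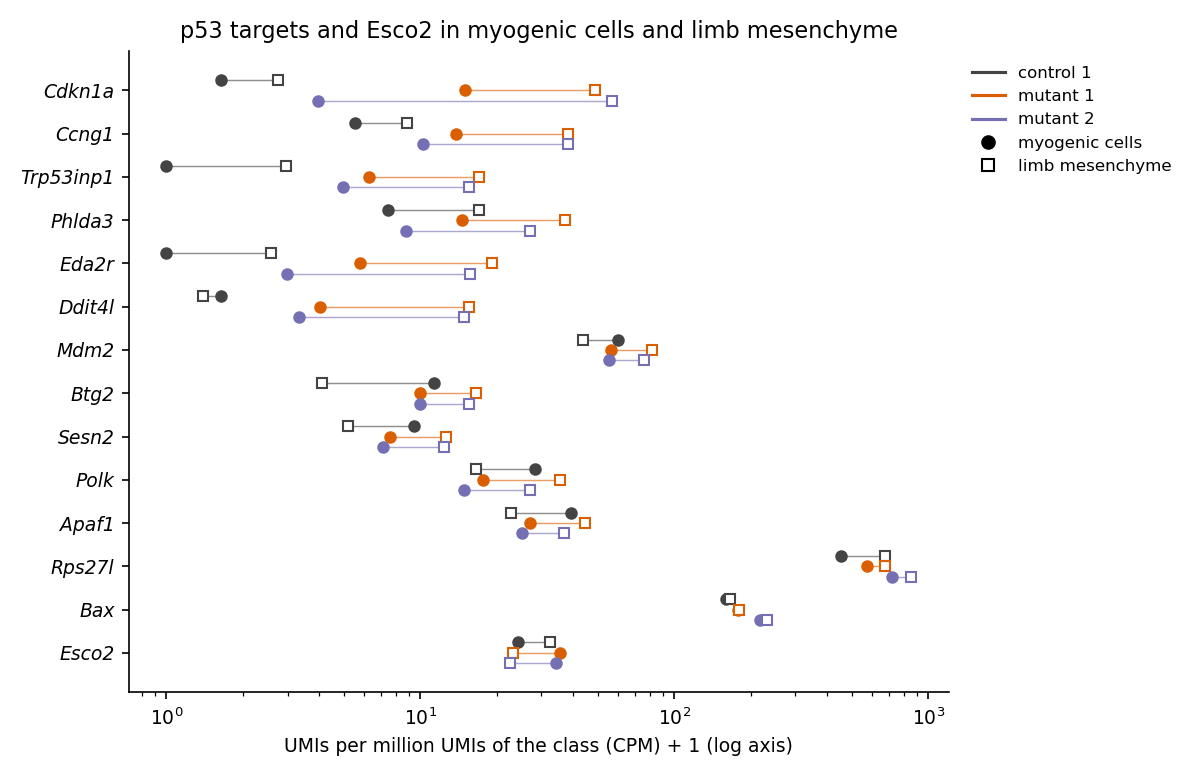
Levels of p53 targets and of Esco2 in myogenic cells (circles) and mesenchyme (squares), joined within each library, on a log axis of CPM + 1. In mesenchyme both mutants lie far above the control for Cdkn1a (1.76 against 47.8 and 55.8), while for Mdm2 the myogenic values of 58.9, 55.4 and 54.5 lie together.

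Among the migration genes the interaction called 7 of 22 lower, where 7.99% of all genes were, and 0 higher, where 6.83% were. Met is 1 of the 7 (-0.84 ± 0.19, edgeR interaction adjusted p = 0.0477), but its mesenchyme levels of 1.18, 2.27 and 1.55 CPM are close to the free RNA background and its myogenic change did not pass, so its difference is not read as a result. Meox2 had a difference of -0.90 ± 0.10, Fgfr1 of -1.01 ± 0.11, Epha4 of -0.93 ± 0.12, Cdh11 of -0.75 ± 0.10, Gab1 of -0.74 ± 0.11 and Itga6 of -1.83 ± 0.18. With cells thinned to 10000 UMIs only Meox2 and Itga6 of the 7 still passed: Met (-0.53), Fgfr1 (-0.61), Epha4 (-0.70), Gab1 (-0.64) and Cdh11 (-0.50) had edgeR interaction adjusted p of 0.541, 0.185, 0.162, 0.128 and 0.103. Mesenchyme held 167 CPM of Cdh11 in the control and 257 and 267 in the mutants, while the myogenic levels were 446, 405 and 377. Fgfr1 differed in opposite directions, at 147, 99.0 and 81.8 CPM in myogenic cells and 93.2, 129 and 117 in mesenchyme. Notch1, a receptor that holds precursors undifferentiated, had the largest difference of its pathway, -2.30 ± 0.32, with 19.4, 15.8 and 12.4 CPM in myogenic cells and 2.52, 9.82 and 9.22 CPM in mesenchyme, and an edgeR interaction adjusted p of 0.0651 with thinned cells. The FGF feedback genes Spred2, Il17rd and Etv5 were lower too, and Etv5 did not pass with DESeq2 (adjusted p = 0.221) or with thinned cells in edgeR (0.217). Of the ligands, Efna5 differed by -1.03 ± 0.08 at 987, 603 and 430 CPM against 497, 684 and 457, and Cxcl12 by 1.67 ± 0.34 at 22.7, 49.0 and 52.1 CPM against 15.0, 13.2 and 9.74. Hoxc6 differed by 1.81, at 6.47, 23.7 and 23.5 CPM against 35.3, 38.1 and 40.1, and Hoxd3 and Hoxb3 by -1.69 and -0.50. With thinned cells the Hoxc6 difference was 0.61 (edgeR interaction adjusted p = 0.687) and that of Hoxb3 -0.47 (0.340), and requiring an Lbx1 UMI gave -1.18 for Hoxd3 (0.147). The erythroid genes were higher for 4 of 6 and Jun by 1.77, and their part in the other differences was not tested. Without the cells called by Scrublet the 4 erythroid differences were 0.33 (Hba-x), 0.37 (Hbb-y), 0.26 (Hbb-bh1) and 0.53 (Hba-a1), with edgeR interaction adjusted p between 0.686 and 0.853.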

How the data were processed

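Single-cell RNA-seq was deposited by the authors as raw UMI count matrices, 1 for each of 3 libraries, with genes and barcodes named. Counts were made with Cell Ranger 7.0.0, per the file headers; mm10 and Seurat 4.0.0 are named in the submitters' processing notes, and strand handling, doublet removal and the filter behind the deposited barcodes were not given in the sources used here. Sample groups were taken from the sample labels.

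Barcodes were gated with Python 3.11.15 as the report states, and UMIs were summed per library and class. Genes averaging 5 CPM or more were tested with edgeR 4.0.16 (quasi-likelihood, TMM, Benjamini-Hochberg, adjusted p under 0.05) in R 4.3.3: mutant against control over 3 sums, and the interaction of class and genotype over 6 sums with a term for each library; each fit had 1 residual degree of freedom. Gate genes were fitted but not counted. Scrublet (scanpy 1.11.5) marked doublets but did not remove them. Intervals are exact Clopper-Pearson at 95%, and they and the limits that a count of 0 allows (3 counts) cover counting error only. The tests were tried on simulated data. For mutant against control 18.75% of 2-fold and 92.71% of 4-fold changes over 10146 genes were recovered, and for the interaction 5% and 68.69% over 10258 genes. The simulation gave every library the same dispersion and did not copy the weight of single cells in the control sums, so these rates may be too high. Alternatives were DESeq2 1.42.0, other filters, other gates, thinning and leaving out libraries.

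The genes named are the members of the lists, the 10 called genes of largest fold in each direction, the 10 of lowest p in the interaction in each direction, and the 20 highest and 10 lowest by ratio to mesenchyme. The cells, lists and rules were chosen with earlier results of these data known. Gene positions are from GENCODE vM21 on GRCm38 and upstream sequences from RefSeq. A gene among those the rule names is not reported here.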

Additional observations from a re-analysis of the deposited data

Results flagged for a closer look

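The mutant effect differed between myogenic cells and limb mesenchyme in the edgeR interaction test for the genes given here, as log2 differences of myogenic minus mesenchyme. It was higher in myogenic cells for 702 genes and lower for 821. The differences of lowest p in the higher direction were those of Hs6st3 (1.84), Csrp2 (1.06), Hist1h2ae (1.02), Dqx1 (3.73), Hist1h1b (1.04), Hist1h2ap (1.07), Tmsb4x (0.89), Aldoa (0.86), Hbb-bh1 (3.49) and Plaur (2.32). Hs6st3, a heparan sulfate sulfotransferase, measured 106, 331 and 209 CPM in control, mutant 1 and mutant 2 myogenic cells and 19.7, 19.7 and 10.9 in mesenchyme. For Hbb-bh1, an embryonic globin, 6643 of 15402 mutant 1 UMIs lay in 1 cell, and the difference was 0.26 without the cells called by Scrublet. The 3 histone genes are members of a multigene family of near-identical copies, so their counts are uncertain.

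In the lower direction they were those of Sdk1 (-2.72), Tbc1d2 (-8.25), Pla2g6 (-3.29), Adgrl2 (-1.35), Unc13b (-4.90), St6galnac3 (-1.33), Macrod2 (-1.83), Myo1c (-2.31), Esrrg (-1.80) and Hmcn1 (-1.66). Sdk1, a homophilic adhesion protein, measured 265, 49.2 and 38.7 CPM in myogenic cells and 119, 167 and 115 in mesenchyme. Of the control myogenic UMIs, 122 of 148 of Pla2g6 and 149 of 162 of Myo1c lay in 1 cell. Listed genes with a difference were Polk (-1.68), Apaf1 (-1.36), Btg2 (-2.37), Mdm2 (-0.86), Sesn2 (-1.77), Rps27l (0.43) and Esco2 (1.15).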

How the results depend on the processing

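No paired analysis was possible because the control library carries no replicate number and the groups share fewer than 2 numbers. Depth and the single control library limit every call: without a mutant replicate no residual degree of freedom is left, so neither test could be run. In mutant against control, 9 genes were higher and 52 lower; the counts were 50 and 214 with no composition factors, 1 and 15 at a mean of 1 CPM, 77 and 267 at 20 CPM, 204 and 327 with no filter, 39 and 150 with a robust prior, 0 and 3 with the 6 sums in 1 fit, 55 and 188 without Scrublet calls, 4 and 21 without cells passing the mesenchyme limit, 26 and 80 with the gate after thinning, 2 and 16 without barcodes of low mitochondrial share, and 19 and 24 without each gene's top cell. Requiring an Lbx1 UMI gave 35 and 78, and thinning before summing 26 and 40. DESeq2 called 10 higher and 59 lower, sharing 5 of the 9 and 35 of the 52. In the interaction, 702 genes were higher and 821 lower; the counts were 371 and 428 with DESeq2, 1829 and 1266 with no filter, 1201 and 1479 without Scrublet calls, 1292 and 1301 without low mitochondrial barcodes, and 149 and 319 with thinned cells. Requiring an Lbx1 UMI gave 303 higher. The p53 list's median of 0.06 was -0.011 with no composition factors, -0.029 without cells passing the mesenchyme limit, -0.036 with thinned cells, 0.16 with no filter, 0.0054 with an Lbx1 UMI, 0.099 with the gate after thinning, 0.099 without low mitochondrial barcodes, and 0.12 to 0.14 without a mutant replicate; 3 members were called higher with no filter. At 4-fold instead of 2-fold, 83 genes were higher and 69 lower than in mesenchyme. The share in mutant 2 was 9.29% without cells passing the mesenchyme limit and 9.24% with an Lbx1 UMI. The log2 change of Mdm2 was 0.022 with no filter, 0.20 with thinned cells and between -0.038 and 0.0014 without a mutant replicate, and that of Tcf15 between -2.51 (without mutant replicate 1) and 1.13. The difference between classes of Myo1c was 0.93 without its top cell, and that of Cdkn1a 4.74 without its top cell and 3.39 with thinned cells. The causes of these shifts were not tested. The alternatives with low mitochondrial barcodes, top cells or thinned sums were added after the data were seen.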
